A study of Macaca mulatta with 24 samples.

Results

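Immediate early genes are switched on within minutes of a signal at the cell surface or of cell stress, without the need for new protein synthesis. They encode zinc finger factors of the EGR family, the FOS, FOSB, JUN and ATF3 proteins that pair through leucine zippers and bind AP-1 or related sites, the growth regulator MYC, and signalling proteins such as IER3 and GEM. In the intestine MYC is best known as a driver of cell growth and division in the crypts. Their messages are short-lived.

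The 10 genes described here are EGR1, EGR2, EGR3, FOS, FOSB, JUN, ATF3, IER3, GEM and MYC, taken by gene symbol from the deposited table of 16094 symbols. They have 16 of the 43603 probes on the array. The set was chosen by measured values, namely with results of day 4 against unirradiated ileum, and with the courses of EGR1 and FOSB, already known. Day 4 differences of all 10 genes, and all differences of EGR1 and FOSB from the controls, are therefore given as descriptions with no p-value.

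Ileum came from 24 young-adult male rhesus macaques without known disease, with 1 array for each animal. The 4 controls were sham-irradiated (0 Gy, labelled day 4). The other animals received a single uniform total-body irradiation (TBI) with cobalt-60 gamma rays and were killed on day 4 (4 animals after 6.7 Gy and 4 after 7.4 Gy), on day 7 (4 and 4) or on day 12 (2 and 2). Day 12 is taken from the sample titles and day field, while the treatment text of the labels gives 21 days. RNA was hybridised singly, in 1 colour, to Agilent rhesus arrays. Pieces of whole ileum were used for RNA, so the signal of a gene sums over epithelium, muscle, nerve and immune cells, and fewer cells of a type cannot be told apart from less RNA in each cell. The same 4 controls served for every comparison with unirradiated ileum.

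Values are log2 signals, each relative to the 75th percentile of its array, so that 0 is that percentile (837.3 to 1330 intensity units). Between 72.7% and 88.1% of probes lay well above background on an array, and the number of animals limits the precision. Defining ileal genes were bright in the controls, with FABP6, the ileal bile acid binding protein, at 8.74 and SLC10A2, the ileal bile acid transporter, at 3.40, although the fatty acid binding protein gene FABP2 read -8.20. A probe entered the limma test when all arrays of 1 or more groups read it well above background, which held for 36110 probes. Called means a change of 2-fold or more whose Benjamini-Hochberg adjusted p in limma is under 0.05. Of the 10 genes, 9 had a tested probe. EGR3 was not well above background on any of the 24 arrays (mean -8.17 over its 1 probe), and it is given no difference.

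Control animal 1 stood apart from the other 3 controls and from the 20 irradiated animals. Its summed signal of 3 smooth muscle marker genes was 99.2 times the array's 75th percentile, where the other controls had 489, 532 and 559 and the irradiated animals 305 to 609. Its 4 enteric neuron markers summed to 0.403, against 1.29, 1.62 and 2.46 in the other controls. This animal had the highest of the 4 control signals for 6 of the 9 genes (FOS, ATF3, JUN, EGR1, FOSB and IER3) and the lowest for GEM. It also had the highest control signal for 26 of 45 further immediate early genes. The share of all tested probes that were highest in this animal was not counted, so nothing particular to these genes is read from the counts. The part of tissue makeup in these levels was not tested, and results that rest on this animal are given with and without it.

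On day 4 the genes did not move together against unirradiated ileum. EGR1, GEM and MYC lay past both limits on the high side after each dose, FOSB on the low side after 6.7 Gy, and EGR2 and IER3 on the high side after 7.4 Gy. FOS, JUN and ATF3 did not pass the limits. The counts are 4 of 9 genes at 6.7 Gy, where 0.978% of all tested probes passed (0.595% higher and 0.382% lower), and 5 of 9 at 7.4 Gy, where 2.33% passed (1.6% higher and 0.734% lower). Since these differences chose the genes, nothing is read from the gap between the shares. Past both limits is used here only to state how the genes stood when they were chosen, and it is no test of them. Without control animal 1 FOSB and GEM no longer lay past both limits at 6.7 Gy, nor EGR2 at 7.4 Gy.

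**Figure D1:**
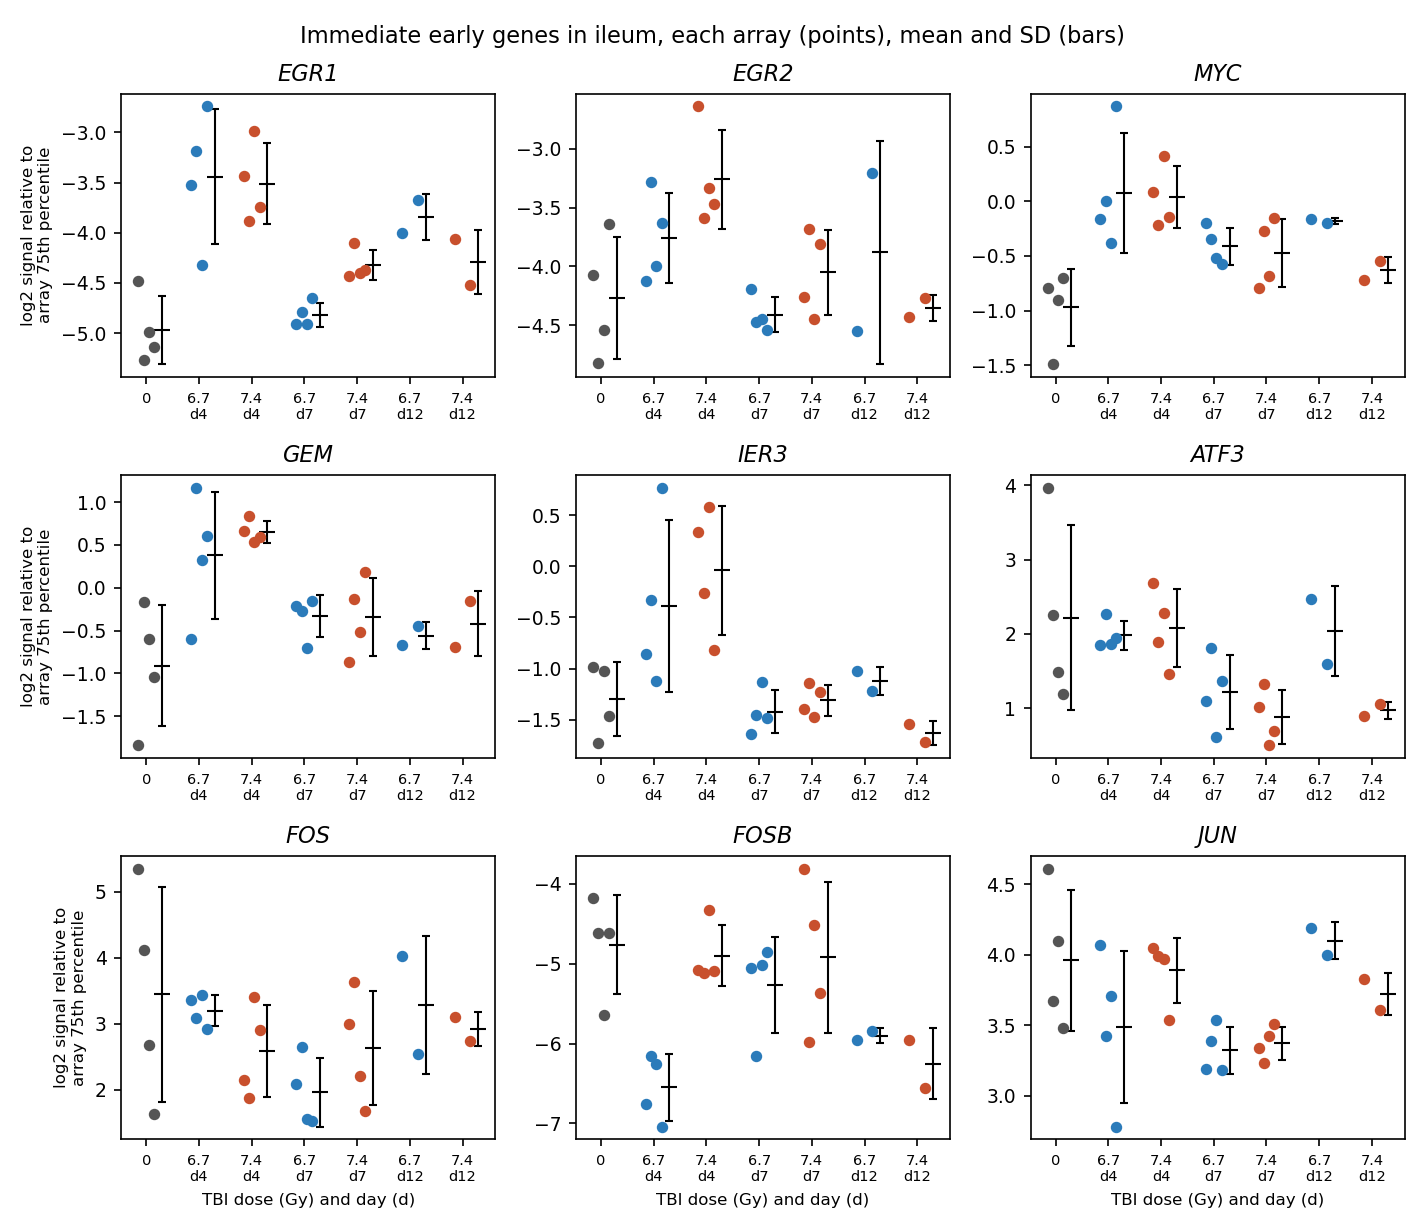
Log2 signal relative to the array's 75th percentile (y axis) of 9 immediate early genes in each of the 24 animals, by TBI dose in Gy and day (x axis). Points are animals (grey, unirradiated; blue, 6.7 Gy; red, 7.4 Gy), and the bars beside them are the group mean and SD. The EGR1 mean is -4.97 in the controls and -3.44 and -3.51 on day 4, the FOSB mean is -6.55 at 6.7 Gy day 4 and -4.90 at 7.4 Gy day 4, and the FOS controls run from 1.63 to 5.35.

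EGR1, a zinc finger factor of the growth factor and stress response, had signals of -4.48, -5.27, -4.99 and -5.14 in the 4 controls. On day 4 they were -3.52, -3.18, -4.32 and -2.74 at 6.7 Gy, and -3.43, -3.88, -2.99 and -3.74 at 7.4 Gy. All 8 irradiated animals lay above all 4 controls. The means were -4.97 ± 0.34 (SD, n = 4) in the controls, -3.44 ± 0.67 (SD, n = 4) after the lower dose and -3.51 ± 0.40 (SD, n = 4) after the higher dose. These means differ from the controls by 1.53 and 1.46 on the log2 scale (standard error 0.26 each), or 2.88-fold and 2.75-fold.

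EGR1 was close to the control level again on day 7 after 6.7-Gy TBI, at -4.91, -4.79, -4.91 and -4.65. After 7.4-Gy TBI it was higher on that day, at -4.43, -4.10, -4.40 and -4.37, and all 4 animals lay above the highest control. On day 12 the signals were -4.00 and -3.67 after the lower dose and -4.06 and -4.52 after the higher dose. The day 12 animals of the lower dose lay above all controls, and those of the higher dose overlapped with them. The overlap at 6.7 Gy day 7 and at 7.4 Gy day 12 was with control animal 1 alone (-4.48). Without it the control mean was -5.13 (SD 0.14), and every irradiated animal lay above the remaining controls. With all controls the differences were 0.16 and 0.65 on day 7 and 1.13 and 0.68 on day 12. In order of group means, EGR1 was highest at 6.7 Gy day 4 and 7.4 Gy day 4, followed by 6.7 Gy day 12, 7.4 Gy day 12, 7.4 Gy day 7, 6.7 Gy day 7 and the controls. Neighbours in this order overlapped, except 6.7 Gy day 12 with 7.4 Gy day 12 and 7.4 Gy day 7 with 6.7 Gy day 7.

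FOSB, a partner of JUN proteins in AP-1, took another course. Its control signals were -4.18, -4.61, -5.64 and -4.61. At 6.7 Gy day 4 they were -6.76, -6.16, -6.25 and -7.04, below all controls, and only 2 of these 4 arrays read the probe well above background. After 7.4-Gy TBI on the same day they were -5.08, -5.11, -4.33 and -5.09, within the range of the controls. The group means of -4.76 ± 0.62 (SD, n = 4), -6.55 ± 0.42 (SD, n = 4) and -4.90 ± 0.38 (SD, n = 4) give differences from the controls of -1.80 and -0.14 (standard error 0.40 each).

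On day 7 FOSB overlapped with the controls after each dose. The signals were -5.05, -6.15, -5.02 and -4.85 after 6.7 Gy and -3.81, -5.98, -4.52 and -5.36 after 7.4 Gy, with differences from the controls of -0.51 and -0.16. On day 12 FOSB read -5.96 and -5.84 after the lower dose and -5.95 and -6.56 after the higher dose, and these 4 animals lay below all controls. The day 12 differences were -1.14 and -1.50 (standard error 0.49 each). Of the 24 arrays, 19 read FOSB well above background, so its low end is close to the limit of the probe. By group mean FOSB was highest in the controls, then 7.4 Gy day 4, 7.4 Gy day 7 and 6.7 Gy day 7, and neighbours in this order overlapped. The groups at 6.7 Gy day 12, 7.4 Gy day 12 and 6.7 Gy day 4 were lowest, with 1 of 2, 1 of 2 and 2 of 4 arrays well above background, and they are given no order.

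**Figure D2:**
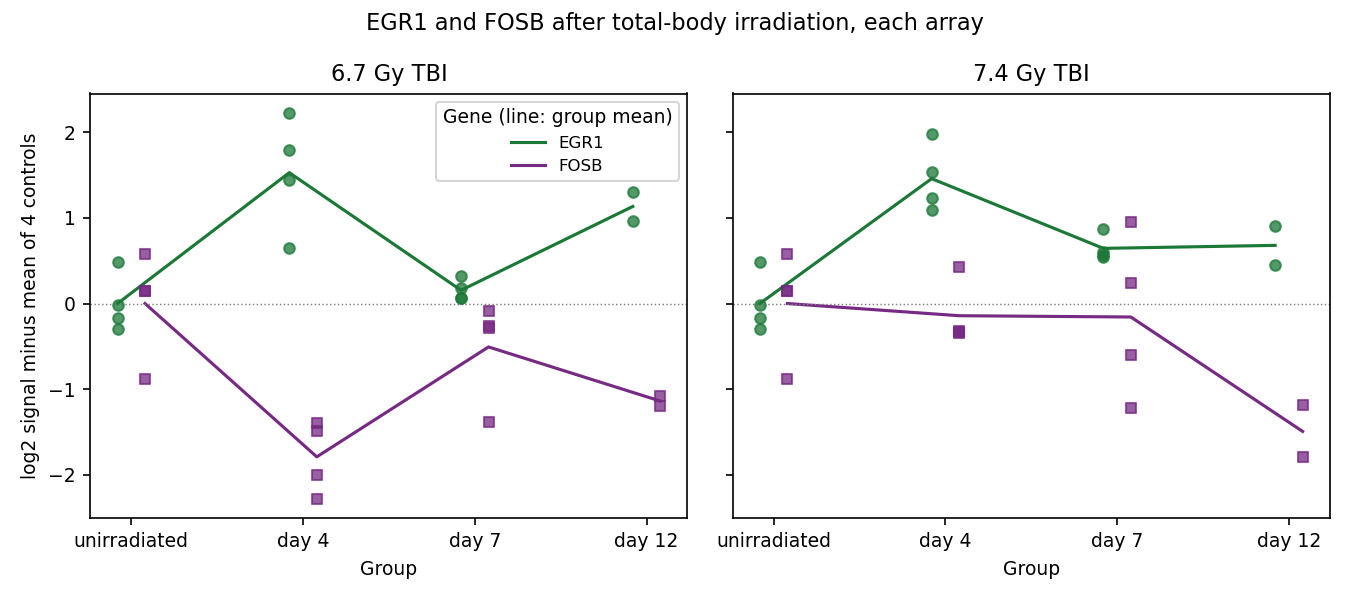
Log2 signal minus the mean of the 4 controls (y axis) for EGR1 (green circles) and FOSB (purple squares) in each animal, by day (x axis), after 6.7-Gy TBI (left) and 7.4-Gy TBI (right); lines join group means. On day 4 the genes lie far apart on either side of the control mean after 6.7 Gy (1.53 and -1.80), while after 7.4 Gy FOSB is close to it (1.46 and -0.14); on day 12 the differences are 1.13 and -1.14 and 0.68 and -1.50.

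The mean of EGR1 lay above and that of FOSB below the control mean in all 6 irradiated groups, but for FOSB on days 4 and 7 after 7.4-Gy TBI this rested on small differences. The FOSB difference at 7.4 Gy day 7 turned to 0.14 with normexp background correction, to 0.03 without control animal 1 and to 0.19 without animal 2 of its own group, and that at 7.4 Gy day 4 turned to 0.05 without control animal 1 and also with array position as a covariate. In 2 of them, 6.7 Gy day 4 and 6.7 Gy day 12, every animal lay outside the control range for both genes. At 7.4 Gy day 12 this held for FOSB. It did not hold there for EGR1, whose overlap was with control animal 1 alone. At 7.4 Gy on days 4 and 7 it held for EGR1 and not for FOSB. Within groups the genes did not mirror each other: over the 24 arrays, the deviations from the group means had a Pearson r of -0.0114 (within-group permutation p = 0.95) and a Spearman rho of 0.113 (p = 0.62). Without the 2 arrays with the farthest EGR1 deviations r was 0.216. Arrays lay on 6 slides, and 4 of these hold a control. With slide as a block the day 4 differences were 1.40 and 1.38 for EGR1 and -1.93 and -0.23 for FOSB. Against the control on the same slide, EGR1 differed by 0.16 and 2.53 in the 6.7-Gy animals of day 4 and by 1.57 and 1.26 in the 7.4-Gy animals, and FOSB by -2.08 and -2.44 and by 0.56 and -0.50.

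Both probes are dim, and the differences given here were smaller with another background correction, normexp, which added an offset of 50 intensity units. An added constant alone makes log2 differences of dim probes smaller. Its part cannot be told apart from that of the background estimate. With normexp in place of the scanner software's subtraction, the day 4 differences were 0.84 and 0.69 for EGR1, and FOSB differed by -0.35 after 6.7-Gy TBI. On day 12 they were 0.66 and 0.29 for EGR1 and -0.11 and -0.43 for FOSB. Neither gene then passed both limits after either dose. Without control animal 1 the day 4 differences of EGR1 were 1.69 and 1.62, and those of FOSB were -1.60 and 0.05.

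Animal 4 of the 6.7-Gy day 4 group had the highest EGR1, IER3 and MYC and the lowest FOS and JUN of its group. For the second FOS probe animal 2 was lowest (-0.63, against -0.58 in animal 4). FOSB was not well above background in animals 1 and 4 of this group, and read lowest in animal 4. Its summed signal of 3 neutrophil list genes, S100A8 and S100A9 among them, was 6.96, against 0.417 to 0.914 in the other animals of the group and 0.469 to 0.538 in the controls. Its 8 epithelial genes summed to 196, against 368 to 483 in the other animals of its group. The part of these cells in its levels was not tested. Without this animal the differences at 6.7 Gy day 4 were 1.29 for EGR1, 0.79 for MYC, 0.53 for IER3 and -1.63 for FOSB, and EGR1 was the only gene of the 9 past both limits.

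EGR2, the EGR factor known from myelination and lymphocyte tolerance, had control signals of -4.07, -4.82, -4.54 and -3.64. On day 4 it read -4.12, -3.28, -4.00 and -3.63 at 6.7 Gy, which overlapped with the controls, and -2.64, -3.59, -3.33 and -3.47 at 7.4 Gy, which lay above them. The differences were 0.51 and 1.01 (standard error 0.29 each), so that EGR2 after the higher dose stood just above the 2-fold limit.

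MYC signals were -0.79, -1.49, -0.90 and -0.70 in the controls. On day 4 they were -0.16, 0.00, -0.38 and 0.87 at 6.7 Gy and 0.09, -0.22, 0.42 and -0.14 at 7.4 Gy, and all 8 animals lay above all controls. Differences were 1.05 and 1.01 (standard error 0.23 each), or 2.07-fold and 2.01-fold, again just above the fold limit. The second MYC probe differed by 1.05 and 1.06.

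GEM encodes a small GTP-binding protein that restrains calcium channels and the cytoskeleton. Its control signals were -1.84, -0.17, -0.60 and -1.04, with the lowest in control animal 1. On day 4 it read -0.60, 1.17, 0.33 and 0.61 at 6.7 Gy and 0.66, 0.84, 0.53 and 0.59 at 7.4 Gy. After the lower dose 3 of 4 animals lay above all controls and after the higher dose all 4 did. The differences of 1.29 and 1.57 (standard error 0.33 each) became 0.98 and 1.26 without control animal 1, and GEM then did not pass both limits after the lower dose.

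IER3, a regulator of cell survival under NF-κB and stress signals, read -0.98, -1.73, -1.02 and -1.46 in the controls. On day 4 its signals were -0.86, -0.33, -1.12 and 0.77 at 6.7 Gy and 0.34, -0.26, 0.58 and -0.82 at 7.4 Gy. The higher dose group lay above the controls and the lower dose group overlapped with them. Differences were 0.91 and 1.26 (standard error 0.32 each) for this probe and 0.68 and 1.02 for the second probe of the gene. At 1.88-fold, IER3 after the lower dose lay just outside the fold limit.

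FOS, the classical partner of JUN, had a range among unirradiated animals wider than that of its group means. Its control signals were 5.35, 4.12, 2.68 and 1.63, a range of 13.2-fold. On day 4 they were 3.36, 3.08, 3.43 and 2.92 at 6.7 Gy and 2.15, 1.88, 3.41 and 2.90 at 7.4 Gy, all inside the control range. ATF3, a stress-induced repressor of the same zipper class, had control signals of 3.97, 2.25, 1.49 and 1.19, a range of 6.87-fold. Its day 4 signals of 1.85, 2.27, 1.87 and 1.94 and of 2.69, 1.89, 2.28 and 1.46 also lay inside that range. JUN read 4.61, 3.67, 4.10 and 3.48 in the controls, 4.07, 3.42, 3.71 and 2.78 at 6.7 Gy day 4 and 4.05, 3.99, 3.97 and 3.54 at 7.4 Gy day 4. The day 4 differences were -0.25 and -0.86 for FOS (standard error 0.59 each), -0.24 and -0.14 for ATF3 (0.43 each) and -0.47 and -0.08 for JUN (0.23 each). With slide as a block those of FOS were -1.14 and -1.06. Without control animal 1 the differences were 0.39 and -0.23 for FOS, 0.34 and 0.44 for ATF3 and -0.26 and 0.14 for JUN.

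The spread within groups sets what could be seen. The pooled SD within groups was 0.90 for FOS, above that of 97.1% of the 14242 genes with a tested probe, 0.65 for ATF3 (91.8%) and 0.60 for FOSB (89.8%), where the median gene had 0.28. MYC and JUN had 0.34 each and EGR1 0.38. In the controls alone the SD of FOS was 1.63 and that of ATF3 1.25, and without control animal 1 they were 1.25 and 0.55.

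**Figure D3:**
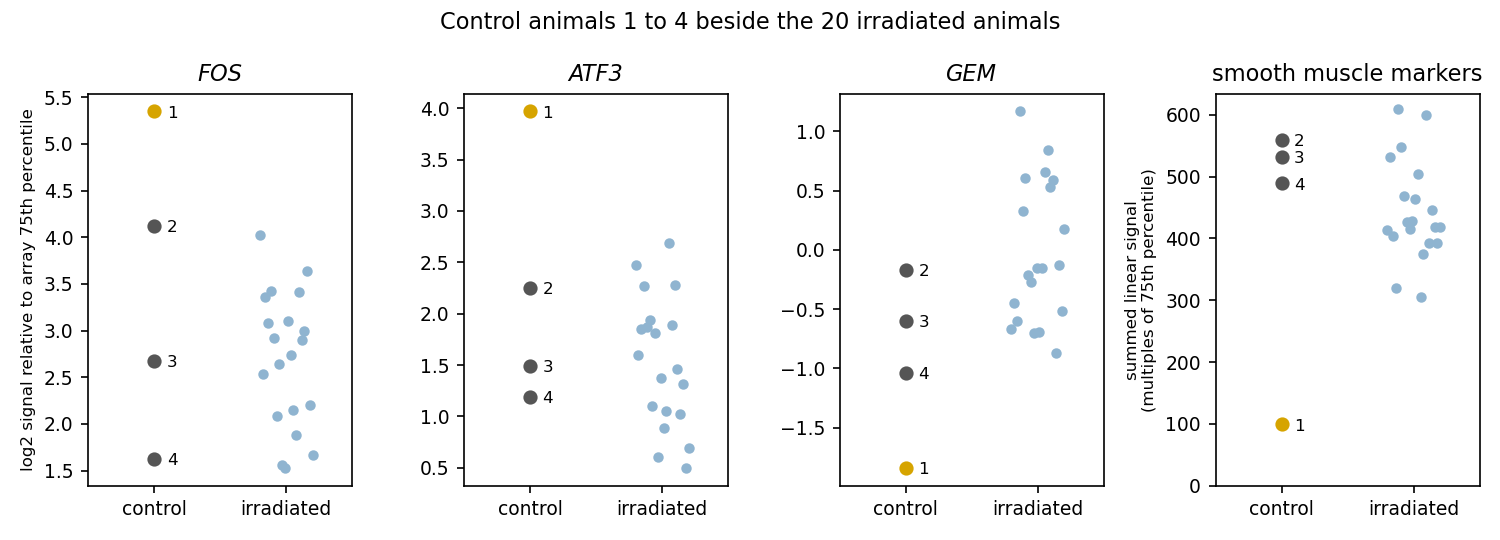
Log2 signals relative to the array's 75th percentile for FOS, ATF3 and GEM, and the summed linear signal of 3 smooth muscle markers in multiples of that percentile, in the 4 controls (numbered by animal, animal 1 in yellow) and the 20 irradiated animals (blue, any dose and day). Control animal 1 has the highest FOS (5.35) and ATF3 (3.97), the lowest GEM (-1.84) and the lowest muscle marker sum (99.2).

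At 6.7 Gy day 4, 2 genes lay wholly above the controls and 1 wholly below, where 4.1% and 7.71% of all tested probes did so. At 7.4 Gy day 4, 5 genes lay wholly above and 0 below, with 7.84% and 7.91% of probes. The median of all tested probes differed from the controls by -0.10 and -0.07. With slide as a block GEM differed by 1.40 and 1.69, MYC by 1.06 and 1.06, IER3 by 1.04 and 1.32 and EGR2 by 0.57 and 0.98. Against the control on the same slide, the 4 animals of day 4 that share a slide with a control differed by 0.78 to 2.17 for GEM and by 0.42 to 2.36 for MYC, all positive, by 0.05 to 1.89 for EGR2, and by -0.13 to 2.50 for IER3.

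Markers of several cell types also differed from the controls on day 4. The shares of all tested probes called were 0.978% at 6.7 Gy and 2.33% at 7.4 Gy. Of 8 epithelial genes 7 were lower after each dose (2 and 1 called), and their summed signal was 540 to 656 in the controls, 196 to 483 at 6.7 Gy and 438 to 455 at 7.4 Gy. The call of the epithelial gene KRT20 at 6.7 Gy was lost without control animal 1. All 6 fibroblast genes were higher after each dose (0 and 3 called), with sums of 38.1 to 67.7, 60.2 to 96.9 and 79.7 to 145. Without control animal 1 only DCN of the fibroblast genes was called, at 7.4 Gy. All 4 enteric neuron genes were higher after each dose (0 and 3 called), with sums of 0.403 to 2.46, 1.55 to 3.01 and 1.89 to 3.40. The lowest of these control sums is that of control animal 1. Without it the control sums were 1.29 to 2.46, none of the neuron genes was called by limma, and their median differences fell from 1.04 and 1.19 to 0.55 and 0.73. Of 3 enteric glia genes 2 were higher after each dose (0 called), with sums of 1.20 to 2.09, 1.49 to 5.27 and 2.43 to 3.15. Of 5 endothelial genes 3 and 5 were higher (0 and 1 called, VWF), with sums of 1.89 to 3.26, 1.66 to 3.70 and 3.08 to 4.55. Without control animal 1 VWF was not called, and 4 of the 5 endothelial genes were higher at 7.4 Gy. Of 5 macrophage genes 4 and 5 were higher (0 and 1 called), with sums of 51.0 to 68.0, 43.6 to 87.1 and 74.8 to 88.1. Of 5 crypt and dividing cell genes 4 and 5 were higher (0 called), with sums of 6.91 to 8.85, 5.97 to 20.5 and 6.11 to 11.2. Without control animal 1, 3 of these 5 genes were higher and 2 lower at 7.4 Gy. All 5 T cell genes and all 4 plasma cell genes were lower after each dose (0 called). The plasma cell sums were 9.45 to 32.7, 8.87 to 13.1 and 7.79 to 11.7. The plasma cell gene MZB1 was called at 7.4 Gy without control animal 1, and 4 of the 5 T cell genes were then lower after that dose. Of 3 neutrophil list genes 2 were higher after each dose (0 called, median 1.41 and 0.46), with sums of 0.469 to 0.538, 0.417 to 6.96 and 0.469 to 0.628. All 3 smooth muscle genes were higher after each dose (0 called, median 0.27 and 0.58), which without control animal 1 became 0 and 2 of 3 (median -0.13 and 0.12). All 3 red cell genes were lower after each dose (HBA and HBB called, median -3.30 and -3.32), with sums of 3.38 to 12.4, 0.577 to 0.821 and 0.569 to 0.964. Of 3 B cell genes 2 and 3 were lower (CD79B called after each dose, median -1.29 and -1.25), with sums of 0.921 to 2.70, 0.616 to 1.37 and 0.561 to 0.914. Of 2 goblet cell genes 2 and 1 were lower (CLCA1 called after each dose, and without control animal 1 at 6.7 Gy alone), with sums of 96.1 to 142, 51.0 to 77.9 and 58.6 to 102. The part of these cells in the day 4 levels was not tested. With all controls, HBA and HBB were also called lower on day 7 after each dose and on day 12 after 6.7 Gy. CD79B and the plasma cell gene TNFRSF17 were called lower on day 7 after 7.4 Gy. The shares of all tested probes called were 0.235% and 0.568% on day 7 and 0.108% on day 12 after 6.7 Gy. No marker was called higher on those days, and the part of cells in the later levels was not tested.

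On days 7 and 12 the choice rested on EGR1 and FOSB, so the other 7 genes (EGR2, FOS, JUN, ATF3, IER3, GEM and MYC) were tested there, with earlier results of those days known. None was called in any of the 4 groups. The shares of all tested probes called were 0.235% and 0.568% on day 7 (6.7 Gy and 7.4 Gy) and 0.108% and 0.0443% on day 12. Without adjustment of the limma p, 2 of the 7 genes passed on day 7 after 6.7 Gy (FOS and ATF3, with 1.32% of all tested probes), 1 after 7.4 Gy (ATF3, 2.38%), 0 on day 12 after 6.7 Gy (1.69%) and 1 after 7.4 Gy (ATF3, 1.84%). The methods' t-test with Benjamini-Hochberg adjustment and limma with trend and robust moderation also called 0 in each group.

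The smallest adjusted p among these genes on day 7 after 7.4-Gy TBI was that of ATF3. Its signals were 1.1, 1.81, 0.61 and 1.37 at 6.7 Gy and 1.02, 1.32, 0.50 and 0.69 at 7.4 Gy, and the higher of these overlapped with the lower controls. The differences were -1.0 (standard error 0.43, adjusted p of limma = 0.46) and -1.34 (0.43, adjusted p = 0.16). On day 12 ATF3 read 2.47 and 1.60 after the lower dose and 0.89 and 1.05 after the higher dose, where both animals lay below all controls (difference -1.25, standard error 0.53, adjusted p of limma = 0.53). Without control animal 1 the 3 differences were -0.42, -0.76 and -0.67. With slide as a block they were -1.0, -1.60 and -1.46. The other 3 ATF3 probes differed at 7.4 Gy day 7 by -1.40, -1.23 and -0.25 and at 6.7 Gy day 7 by -1.20, -0.99 and -0.64, none of them called. The probe at -1.23 and that at -0.64 lay wholly below the controls there. In the same order, the day 12 differences were -1.15, -1.18 and -0.09 at 7.4 Gy. At 6.7 Gy they were -0.45, -0.22 and 0.38, the last wholly above the controls, and none was called.

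FOS on day 7 read 2.09, 2.64, 1.56 and 1.53 at 6.7 Gy and 3.00, 3.64, 2.20 and 1.67 at 7.4 Gy. Both groups overlapped with the controls. Their differences were -1.49 (standard error 0.59, adjusted p of limma = 0.41) and -0.82 (0.59, adjusted p = 0.57), and -0.85 and -0.18 without control animal 1. With slide as a block they were -1.49 and -1.71, and against the control on the same slide the 6 day 7 animals with such a control differed by -3.26 to -0.10. On day 12 FOS read 4.03 and 2.54 after the lower dose and 3.10 and 2.74 after the higher dose, each within the control range.

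JUN had a narrow range on day 7, at 3.19, 3.39, 3.54 and 3.18 at 6.7 Gy and 3.34, 3.23, 3.42 and 3.51 at 7.4 Gy, each group reaching into the low end of the controls. The differences were -0.64 (standard error 0.23, adjusted p of limma = 0.34) and -0.59 (0.23, adjusted p = 0.27), and -0.42 and -0.38 without control animal 1. On day 12 JUN read 4.19 and 4.00 and 3.83 and 3.61, within the control range.

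MYC had a mean above that of the controls in each of the 4 groups. On day 7 it read -0.20, -0.34, -0.52 and -0.57 at 6.7 Gy, above all controls, and -0.79, -0.27, -0.68 and -0.15 at 7.4 Gy, where 3 of the 4 animals did so. Differences were 0.56 (standard error 0.23, adjusted p of limma = 0.43) and 0.50 (0.23, adjusted p = 0.36). On day 12 the signals were -0.16 and -0.20 after the lower dose, above all controls (0.79, standard error 0.28, adjusted p = 0.39), and -0.72 and -0.55 after the higher dose (0.33, standard error 0.28, adjusted p = 0.85). The second MYC probe differed by 0.64 and 0.49 on day 7 and by 0.72 on day 12 after 6.7 Gy, and by -0.05, below the controls, on day 12 after 7.4 Gy.

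GEM on day 7 read -0.21, -0.27, -0.70 and -0.15 at 6.7 Gy and -0.87, -0.13, -0.52 and 0.18 at 7.4 Gy, each group overlapping with the controls. It differed from them by 0.58 after each dose (standard error 0.33 each, adjusted p of limma 0.64 and 0.46), and by 0.27 without control animal 1. On day 12 its signals were -0.67 and -0.45 after 6.7 Gy and -0.69 and -0.15 after 7.4 Gy. IER3 was back in the control range on day 7 (-1.64 to -1.13 after 6.7 Gy and -1.47 to -1.14 after 7.4 Gy) and differed from the controls by less than its standard error on days 7 and 12. EGR2 ranged from -4.54 to -4.19 and from -4.45 to -3.68 on day 7 and from -4.55 to -3.21 and from -4.43 to -4.27 on day 12, and did not pass the test on either day.

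Counted without a test, on day 7 EGR1 and MYC were the genes wholly above the controls in 1 group each (MYC after 6.7 Gy, where 4.47% of tested probes lay wholly above, and EGR1 after 7.4 Gy, where 3.72% did). On day 12 after 6.7-Gy TBI EGR1 and MYC lay wholly above (15.3% of probes) and FOSB wholly below (7.56%), and after 7.4-Gy TBI FOSB and ATF3 lay wholly below (9.38%) and 0 genes wholly above (8.43%).

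The comparison of 7.4 Gy with 6.7 Gy on each day took the difference of 2 irradiated groups, with the controls entering through the shared estimate of the spread. EGR1 and FOSB, whose courses were known when they were chosen, are described and not counted. Of the other 7 genes 0 were called on day 7 (0% of all tested probes called) or day 12 (0.00277%), and 0 passed without adjustment of the limma p (0.39% and 1.55% of probes). On day 4, where values of the same animals chose the genes, differences between doses are descriptions too, and nothing is read from the 0 of 7 genes called (0% of all tested probes, and 0.424% without adjustment). FOSB on day 4 was higher in all 4 animals after 7.4 Gy than in all 4 after 6.7 Gy (1.61% of probes lay wholly above). Its means differed by 1.65 (standard error 0.40), and by 0.33 with normexp background correction. Only 2 of the 4 arrays at 6.7 Gy day 4 read FOSB well above background. Other differences on day 4 were 0.50 for EGR2, -0.61 for FOS, 0.40 for JUN and 0.35 for IER3, and that of FOS was 0.08 with slide as a block.

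EGR1 did not separate by dose on day 4, where the groups overlapped and the means differed by less than the standard error. On day 7 its 4 animals after 7.4 Gy lay above all 4 after 6.7 Gy (1.78% of probes did so), with a difference of 0.49 (standard error 0.26), again a description. FOS and EGR2 differed by 0.67 and 0.36 on that day (adjusted p of limma 0.99 each), with overlapping groups, and the FOS difference was -0.22 with slide as a block. On day 12, 4 of the other 7 genes were wholly lower after 7.4 Gy (JUN, ATF3, IER3 and MYC), and so was EGR1, where with 2 animals a dose 26% of all tested probes were so. The largest of these differences was that of ATF3, at -1.07 (standard error 0.61, adjusted p of limma = 0.81). The day 12 difference of EGR1 was -0.45, and those of JUN, IER3 and MYC were -0.38, -0.51 and -0.45, each of the latter with an adjusted p of limma of at least 0.85. The second MYC probe differed by -0.77 (adjusted p 0.77). The 7.4-Gy arrays of day 12 were all scanned on the second of 2 scan days and the 6.7-Gy arrays on the first, so no comparison within a scan day can be made there. With scan day as a fixed block, which rests on the 3 groups with arrays on both days, the day 12 differences between doses were -0.65 for EGR1, -1.17 for ATF3, -0.40 for JUN, -0.34 for IER3 and -0.37 for MYC. The controls were all scanned on the first day too, so the same holds for 7.4 Gy day 12 against the controls, where with this block EGR1 differed by 0.48, FOSB by -1.70, ATF3 by -1.36 (adjusted p of limma = 0.98) and MYC by 0.42.

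Pairs of genes were compared by their deviations from the group means over the 24 arrays, for 36 pairs of the 9 genes. No pair had an adjusted p under 0.05 (permutation within groups, Benjamini-Hochberg over 36 pairs), while 5 pairs had one with slide as a block and 2 with normexp. Deviations with slide as a block were cleared of slide differences as well, so permuting them within groups gives no exact p-value. The highest correlations were those of EGR1 with IER3 (Pearson r = 0.80, permutation p = 0.0043, adjusted p = 0.077, Spearman rho 0.732), IER3 with MYC (r = 0.77, permutation p = 0.0024, adjusted p = 0.077, rho 0.617) and FOS with ATF3 (r = 0.763, permutation p = 0.0065, adjusted p = 0.079, rho 0.642). Spearman's rho of these pairs had adjusted permutation p-values of 0.066, 0.12 and 0.15. Without the 2 arrays that lie farthest from the median of the first gene, r was 0.662, 0.669 and 0.521. For FOS with ATF3 these 2 arrays were control animals 1 and 4. The lowest correlation was that of JUN with GEM (r = -0.562, permutation p = 0.087, adjusted p = 0.45).

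**Figure D4:**
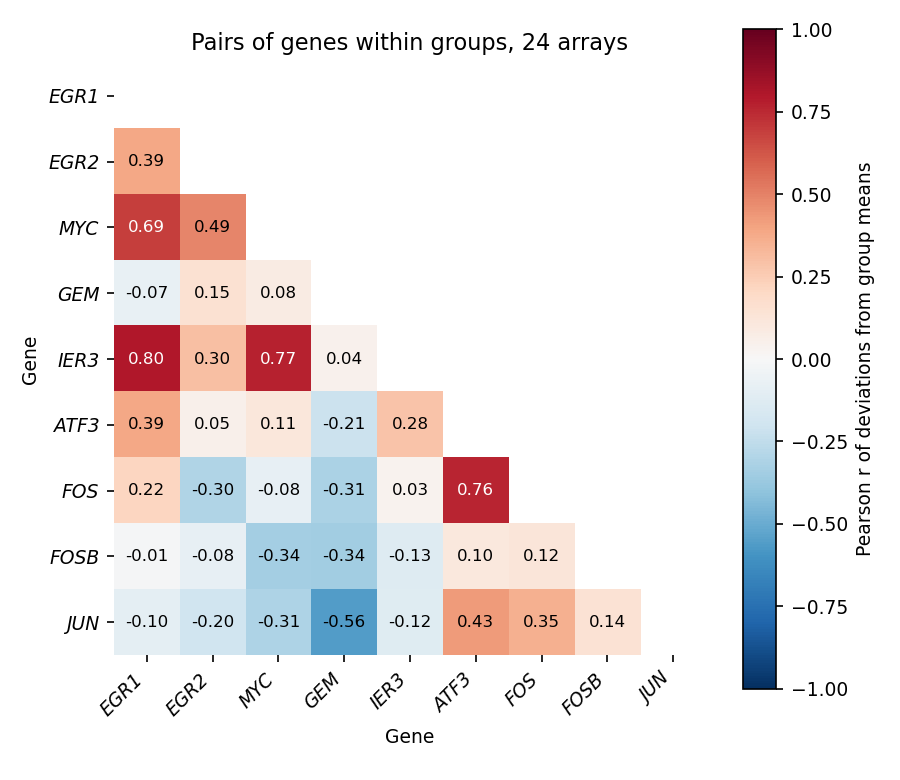
Pearson r between 9 immediate early genes, over 24 arrays, of the deviations of each array from its group mean (colour from -1 in blue to 1 in red, value in each cell). EGR1, MYC and IER3 give r of 0.69, 0.80 and 0.77 among themselves, FOS and ATF3 give 0.76, and FOSB gives -0.34 to 0.14 with every other gene.

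FOSB had no correlation above 0.142 with any of the other 8 genes, with r = 0.122 for FOS, of its own family, and 0.142 for JUN, its AP-1 partner. FOS and JUN had r = 0.353 (permutation p = 0.26), which was -0.084 without the 2 farthest arrays, again control animals 1 and 4.

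Across all 24 arrays, group differences included, the genes most like EGR1 among 14241 others were GDF15 (r = 0.854), CCL2 (0.834), CH25H (0.831), MYC (0.828) and EIF3B (0.827). GDF15 is a stress-induced cytokine, CCL2 attracts monocytes, CH25H makes an oxysterol, and EIF3B is a subunit of a translation initiation factor. The genes most like FOSB were TLR6 (0.727), a Toll-like receptor, C20H16orf92 (0.697), PIP4K2B (0.697), a lipid kinase, ZNF445 (0.674), a zinc finger gene, and LOC705249 (0.664). These are descriptions over arrays that share groups and controls.

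Of a list of 60 other immediate early, regulator and feedback genes, which leaves out the 10 above, 45 had a tested probe. At 6.7 Gy day 4 23 were higher and 22 lower than in the controls (median log2 difference 0.01, against -0.10 for all tested probes), and 1 was called, PLK2 (0.978% of all tested probes). After 7.4-Gy TBI 26 were higher and 19 lower (median 0.06, against -0.07), and 3 were called, PLK2, THBS1 and CTGF (2.33%). Without adjustment the counts were 3 and 3 (2.95% and 3.98% of all tested probes). By the methods' t-test with Benjamini-Hochberg adjustment they were 0 and 1, with array position as a covariate 1 was called after 7.4 Gy, and on arrays of the first scan day alone 1. Without control animal 1 they were 1 and 2, as CTGF was lost after 7.4 Gy. On days 7 and 12 none was called by limma, where 0.235%, 0.568%, 0.108% and 0.0443% of all tested probes were, so that a count of 0 among 45 genes is near the background. The unadjusted limma counts were 1, 1, 0 and 0 (1.32%, 2.38%, 1.69% and 1.84% of all tested probes), and the gene on day 7 was SGK1, a stress-induced kinase (-1.14 and -1.16). Medians were -0.12 and -0.14 on day 7 and 0.09 and -0.02 on day 12, against 0, -0.03, 0.06 and -0.01 for all tested probes. Familiar genes of this list that were not called on day 4, picked after the values were seen, are JUNB (0.13 and 0.12), NR4A1 (0.39 and 0.35), IER2 (-0.18 and -0.29), FOSL2 (-0.23 and -0.31) and DUSP1, a phosphatase that ends MAP kinase signals (-0.27 and -0.24).

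PLK2, a polo-like kinase of the stress response, had signals of -1.96, -1.58, -2.09 and -2.31 in the controls. On day 4 it read 0.29, 0.17, -0.41 and 0.04 at 6.7 Gy and 0.15, -0.03, 0.22 and -0.30 at 7.4 Gy, and all 8 animals lay above all controls. Its differences were 2.01 (standard error 0.23, adjusted p of limma = 7.8e-05) and 1.99 (0.23, adjusted p = 6.6e-05), larger than those of any of the 9 genes. On day 7 PLK2 differed from the controls by 0.45 and 0.55 (adjusted p of limma 0.59 and 0.32), and it was not called on day 12.

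THBS1 and CTGF encode secreted matricellular proteins of wound repair. THBS1 read -3.76, -3.11, -2.51 and -2.51 in the controls, -2.18, -1.38, -1.96 and -1.89 at 6.7 Gy day 4 and -1.04, -1.39, -2.0 and -1.71 at 7.4 Gy day 4, so that all 8 irradiated animals lay above all controls. Its differences were 1.12 (standard error 0.31, adjusted p of limma = 0.056) and 1.44 (0.31, adjusted p = 0.011). Its lowest control signal was that of control animal 1, and without this animal the differences were 0.85 (adjusted p of limma = 0.15) and 1.17 (adjusted p = 0.044). CTGF read -4.16, -3.72, -3.71 and -4.12 in the controls, -3.95, -1.99, -2.77 and -2.91 at 6.7 Gy day 4 and -2.31, -3.07, -2.75 and -2.63 at 7.4 Gy day 4. Animal 1 of the lower dose lay among the controls for CTGF. The differences of CTGF were 1.02 (standard error 0.36, adjusted p of limma = 0.11) and 1.24 (0.36, adjusted p = 0.043). They were 0.95 and 1.16 without control animal 1 (adjusted p of limma 0.21 and 0.12), and 1.03 and 1.25 with scan day as a block (adjusted p 0.16 and 0.075), so that the call of CTGF was lost in both. The fibroblast markers given above were higher on the same day, and their part in the levels of THBS1 and CTGF was not tested.

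**Figure D5:**
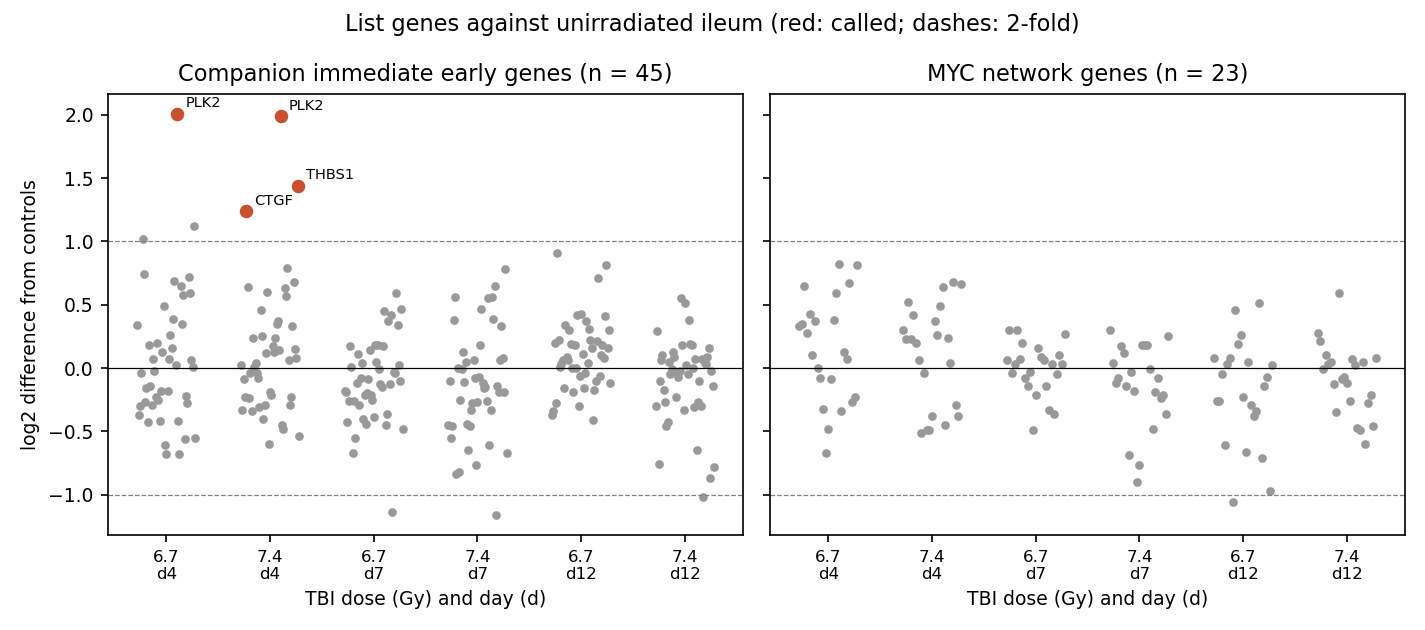
Log2 difference from the 4 controls (y axis) of 45 further immediate early and feedback genes (left) and 23 MYC network genes (right) in the 6 irradiated groups (x axis, dose in Gy and day); each point is a gene, red points were called and dashed lines mark a 2-fold change. PLK2 is called on day 4 after each dose, with THBS1 and CTGF after 7.4 Gy, and no MYC network gene is called.

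Of 37 genes that are partners, antagonists or usual targets of MYC, 23 had a tested probe, and 0 of them were called by limma in any of the 6 groups. The shares of all tested probes called were 0.978% and 2.33% on day 4, 0.235% and 0.568% on day 7 and 0.108% and 0.0443% on day 12, so that a count of 0 among 23 genes is near the background. On day 4 15 were higher and 8 lower after each dose, with median differences of 0.13 at 6.7 Gy and 0.23 at 7.4 Gy, against -0.10 and -0.07 for all tested probes. Without adjustment of the limma p the count was 1 at 6.7 Gy day 12 (LDHA, -1.06, with 1.69% of all tested probes) and 0 elsewhere. MAX, the obligate partner of MYC, and FBXW7, which marks MYC for degradation, were also picked after the values were seen. MAX differed by -0.08 and -0.04 on day 4 and FBXW7 by 0.10 and 0.20.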

How the data were processed

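Ileal RNA of 24 macaques was hybridised without pooling. Per the file headers, intensity values were extracted from the scans with Agilent Feature Extraction 11.0.1.1, with background subtraction and detrending. The authors log2-transformed the intensities and normalized them to the 75th percentile of each array, and the deposited log2 table is also centred on each probe's median. Here log2 processed signals were computed from the scanner values, minus each array's 75th percentile over non-control probes; apart from the centring they equalled the deposited log2 values within 0.00118. Spots of a probe were averaged, without outlier spots where another remained, and no spot was saturated. The brightest tested probe stood for a gene.

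Probes that all arrays of 1 or more groups read well above background (36110 of 43603) entered limma 3.58.1 (R 4.3.3), with 7 group means over all 24 arrays and Benjamini-Hochberg adjustment. The p-values measure the spread between separate animals. The genes and lists were chosen with earlier results of these data known. Named were all 10 genes, list genes called against the controls, and the 5 genes most correlated with EGR1 and with FOSB; 9 list genes that were not called, and marker genes, were also named after their values were seen. Pairs were tested with 1e+05 permutations within groups. The code was tested on simulated data. Alternatives were background correction, normalization, the deposited table, the filter on dim probes, the test, the choice of probe, slide, position, the replicate number and leaving out each animal; scan day was added after seeing the data. Normexp used median spot signals and an offset of 50 intensity units. No sequences or coordinates are given.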

Additional observations from a re-analysis of the deposited data

Results flagged for a closer look

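In 45 sets of 4 animals (a gene in a group), 3 had an animal whose gap to its nearest neighbour took up more of the whole range than Dixon's critical value allows, and chance gives about 1 in 20 sets. FOSB in animal 3 of the 7.4-Gy day 4 group was -4.33, with the nearest at -5.08 (ratio 0.959). FOSB in animal 2 of the 6.7-Gy day 7 group was -6.15, with the nearest at -5.05 (ratio 0.843). JUN in animal 4 of the 7.4-Gy day 4 group was 3.54, with the nearest at 3.97 (ratio 0.832).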

How the results depend on the processing

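None of the tested genes among the 10 was called against the controls on days 7 and 12, or between doses, under the adjusted alternatives; the methods' t-test at its unadjusted p called 1 between doses on day 4 (FOSB, described only, as its low level at 6.7 Gy was known when it was chosen), 1 further immediate early gene at 6.7 Gy day 7 and 1 MYC network gene at 6.7 Gy day 12. With normexp the differences of EGR1 were 0.84 and 0.69 on day 4 and 0.66 and 0.29 on day 12, those of FOSB were -0.35 at 6.7 Gy day 4 and -0.11 and -0.43 on day 12, and 2 genes passed both limits on day 4 after each dose. The counts past both limits on day 4 (4 and 5) were 1 and 0 with array position as a covariate, 0 and 1 on the first scan day alone, 0 and 0 by the methods' t-test after adjustment, 3 after 7.4 Gy with slide as a fixed block, and 1 to 4 and 2 to 5 when each animal was left out in turn; without control animal 1 they were 2 and 4, without control animal 2 3 and 2, and without animals 1 or 3 of the 7.4-Gy day 4 group 2 after that dose. With array position the differences at 7.4 Gy day 4 were 1.64 for EGR1, 1.12 for EGR2, 1.38 for GEM, 0.83 for IER3 and 0.67 for MYC, so that for EGR1, EGR2 and GEM they stayed over 2-fold. All arrays of that group lay at position 2 and all controls at position 1. These values therefore rest on the 6.7-Gy day 4 group, the only one with arrays at both positions. Of the further immediate early genes 2 were called at 6.7 Gy day 4 with quantile normalization, array medians, only probes above background on all arrays, slide as a fixed or random block, or the unadjusted t-test, 0 by the adjusted t-test, and 1 to 2 when each animal was left out. At 7.4 Gy day 4 1 was called by the adjusted t-test, with array position or on the first scan day alone. The FOS difference between doses was 0.08 on day 4 and -0.22 on day 7 with slide as a fixed block, and -0.02 on day 7 on the first scan day alone. EGR2 at 6.7 Gy day 12 rested on 2 animals that differ: its difference from the controls ran from -0.29 (without animal 2) to 1.06 (without animal 1) and that between doses from -1.14 to 0.21.

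The count of gene pairs with an adjusted p under 0.05 was 0, but 2 with normexp, array medians or array position, 3 with the mean of probes or scan day as a block, 5 with slide as a block and 0 to 3 when each animal was left out. With a block or array position fitted, permutation within groups gives no exact p-value, so those counts are not like the others. The cause of these changes was not tested. Of 62 same-numbered pairs of samples 16 had a correlation of deviations over 0.1 (range -0.264 to 0.365). Pairs with different numbers were not compared, so these values cannot show whether the replicate numbers pair the animals. With the replicate block 4 genes passed both limits on day 4 after each dose and 4 gene pairs had an adjusted p under 0.05. Array position could not be fitted for days 7 and 12 against the controls. No group had arrays both at positions 1 or 2 and at positions 3 or 4. Signal over background limits EGR3 and FOSB, and day 12 has 2 animals a dose.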
